A study of Mus musculus with 12 samples.

Results

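The 36 genes described here encode proteins that carry a cell through mitosis, from the cyclins and kinases of mitotic entry to the motors and scaffolds that separate the daughter cells. They were taken as a list of gene symbols, which were matched to the Ensembl identifiers of the deposited count files. All 36 were found among 53647 genes, and all 36 passed the filter on low counts that left 14863 genes for testing. The lowest count of any of them in any library was 235, for Cdc25c, so none of the values below is limited by a count near 0.

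The series holds 12 mouse RNA-seq libraries, all of wild-type genotype, in 6 groups of 2 called preparation 1 and preparation 2. Groups DC2.4_Mock and 4T1_Mock are labelled as DC2.4 and 4T1 cells given EGFP mRNA, the mock, and groups DC2.4_uniSTING and 4T1_uniSTING as the same lines given uniSTING mRNA, which codes for a mimic of the innate immune adaptor STING. DC2.4 is an immortalized murine dendritic cell line and 4T1 a murine mammary carcinoma line. Delivery was by a TransIT reagent or by SS-OP lipid nanoparticles; the labels do not say which library had which, nor for how long the mRNA was left on. Groups DC2.4_EXOmock and DC2.4_EXOuniSTING are labelled as DC2.4 cells kept for 24 h with vesicles that 4T1 cells had released after EGFP or uniSTING mRNA. Both lines are single established lines, and nothing in the labels says that the preparations were separate cultures, so the p-values measure the spread between these preparations, which may be technical.

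Markers of the 2 lines went against the labels of the mRNA-treated libraries, and these are therefore called by their labels throughout. Summed over 18 epithelial markers, the level was 5474 to 5539 CPM (counts scaled to a common library total) in the libraries labelled DC2.4 Mock, 5774 to 5789 in those labelled DC2.4 uniSTING, and 1.19 to 8.30 in the other 8. Summed over 18 leukocyte and myeloid markers it was 33.7 to 54.1 CPM in the 4 mRNA libraries labelled DC2.4, with Itgam at 0 in all 4, and 9071 to 9303 CPM in the 4 labelled 4T1. The vesicle-treated libraries had 14028 to 14134 CPM of the leukocyte markers in EXOmock and 11272 to 12044 in EXOuniSTING. The epithelial surface gene Epcam, for example, stood at 286 to 318 CPM under the DC2.4 label with mRNA and at no more than 0.737 elsewhere, whereas the pan-leukocyte gene Ptprc stood at 302 to 327 CPM in the 8 other libraries and at no more than 1.01 there. Total counts ran from 14.1 to 26.0 M per library, preparation 2 being 1.26 to 1.42 times deeper than preparation 1 of the same group, and 3 counts corresponded to 0.115 to 0.213 CPM.

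Most genes of mitosis are transcribed late in the cell cycle. In resting and early-cycle cells the DREAM complex holds them down at a promoter element named the cell cycle genes homology region (CHR), and later MYBL2 and FOXM1 join the MuvB core of that complex at the same element to switch them on, often together with the factor NF-Y bound at CCAAT boxes nearby. Their mRNAs rise into G2 and M phase and many of their proteins are destroyed by the anaphase-promoting complex (APC/C) at mitotic exit, so in bulk RNA their level follows the share of cells in G2 and M as well as transcription in each cell. In these libraries fewer cells in mitosis and less RNA per cell cannot be told apart.

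The promoters of the list carry those elements far more often than other promoters of the same length, and 5 are shown because they span the pattern and belong to genes the results turn on. Windows of 250 bases before to 50 after the annotated start were given by RefSeq (GRCm38.p6) for 31 of the 36 genes, with 2 windows for Prc1. Each is printed 5′ to 3′ on the gene's own strand, with matches to CHR (TTTGAA or TTCGAA, on either strand, so also TTCAAA) and to the NF-Y box (CCAAT, on either strand, so also ATTGG) in capitals. The Ccnb2 window is chr9:70421505-70421804, that of Cdk1 chr10:69352863-69353162, of Cdc20 chr4:118437294-118437593, of Mki67 chr7:135716330-135716629 and of Nuf2 chr1:169531415-169531714, all on the minus strand.
Ccnb2: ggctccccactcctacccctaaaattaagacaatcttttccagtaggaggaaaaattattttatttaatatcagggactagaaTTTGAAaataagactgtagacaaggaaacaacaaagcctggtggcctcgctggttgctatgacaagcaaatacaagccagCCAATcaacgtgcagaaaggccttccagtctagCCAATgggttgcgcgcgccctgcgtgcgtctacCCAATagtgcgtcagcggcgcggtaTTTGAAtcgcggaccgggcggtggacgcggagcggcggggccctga
Cdk1: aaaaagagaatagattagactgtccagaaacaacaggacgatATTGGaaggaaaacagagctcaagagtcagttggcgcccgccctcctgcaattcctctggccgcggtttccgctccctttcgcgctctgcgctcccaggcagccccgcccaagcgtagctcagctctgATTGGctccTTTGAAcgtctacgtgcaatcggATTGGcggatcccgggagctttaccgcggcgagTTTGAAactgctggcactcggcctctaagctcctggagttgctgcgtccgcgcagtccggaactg
Cdc20: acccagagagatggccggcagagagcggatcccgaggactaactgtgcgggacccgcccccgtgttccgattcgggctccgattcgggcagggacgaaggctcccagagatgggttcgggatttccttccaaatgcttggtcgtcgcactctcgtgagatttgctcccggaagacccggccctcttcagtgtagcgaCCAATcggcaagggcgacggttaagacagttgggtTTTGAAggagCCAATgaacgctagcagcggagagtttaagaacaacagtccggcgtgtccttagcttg
Mki67: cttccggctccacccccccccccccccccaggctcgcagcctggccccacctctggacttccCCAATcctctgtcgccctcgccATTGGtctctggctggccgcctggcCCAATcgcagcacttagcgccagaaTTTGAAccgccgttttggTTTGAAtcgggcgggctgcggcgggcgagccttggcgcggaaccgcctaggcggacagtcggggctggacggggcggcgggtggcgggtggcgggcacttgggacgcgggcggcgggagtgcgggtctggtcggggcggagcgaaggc
Nuf2: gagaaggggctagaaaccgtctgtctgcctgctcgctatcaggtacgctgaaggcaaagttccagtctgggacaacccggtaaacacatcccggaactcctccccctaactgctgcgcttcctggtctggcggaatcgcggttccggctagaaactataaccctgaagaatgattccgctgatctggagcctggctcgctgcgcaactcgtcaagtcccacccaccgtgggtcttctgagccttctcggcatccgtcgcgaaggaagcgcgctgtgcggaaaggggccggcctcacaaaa
In the Ccnb2 window, which belongs to a B-type cyclin, 3 CCAAT boxes begin at positions -87, -54 and -21 and a CHR at position 5 just past the start, with another CHR at -167. The Cdk1 window has a CHR at -71 between boxes at -80 and -48 on the opposite strand, another CHR at -15 nearer the start, and a further box at -208. Cdc20 has its CHR at -18 between boxes at -53 and -8, whereas the elements of Mki67 lie further out, with CHR matches at -116 and -98 behind boxes at -188, -166 and -141. The Nuf2 window holds neither sequence, nor do those of Birc5 and Nusap1, which says only that these letters are not in these windows.

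Over the list, 27 of 32 windows (84.4%) held a CHR, against 19.2% of all 32851 RefSeq windows and 13.9% of the 12622 windows of protein-coding genes tested here. The NF-Y box was in 26 windows (81.2%), against 37.4% of all windows, and both were in 24 (75.0%), against 7.52%. Over the related lists read further below, CHR shares ran from 7.14% (Cdk inhibitors and p53 genes) to 63.6% (spindle checkpoint). NF-Y shares ran from 36.4% (spindle checkpoint) to 75.0% (centromere and kinetochore). Shares with both ran from 0.0% (Cdk inhibitors and p53 genes) to 42.9% (other spindle and cytokinesis genes). The elements are thus not particular to the 36 genes. In the 100 bases nearest the start the shares were 78.1% for CHR, against 5.31% of all windows, and 53.1% for both, against 0.886%. Of the 35 CHR matches, 26 began within 50 bases of the start, while the 61 NF-Y boxes lay further upstream, at a median position of -71. The windows of Prc1 overlap, so its CHR and its NF-Y box are each counted in both of them. These are matches of letters and do not show that a factor was bound.

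**Figure D1:**
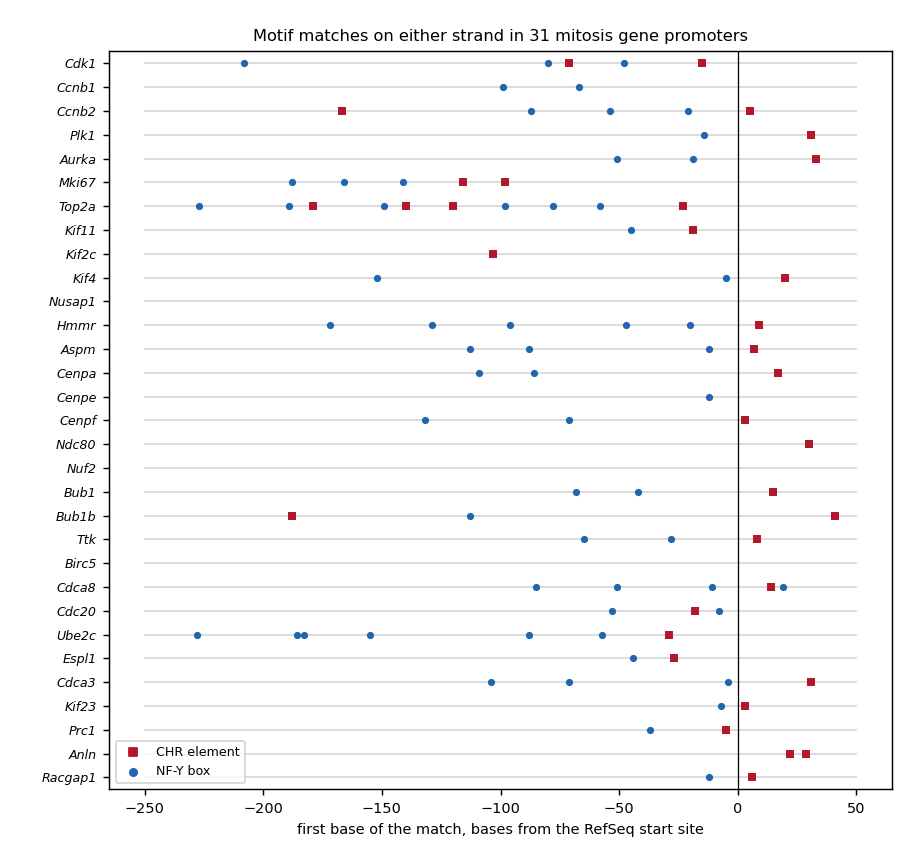
Positions of CHR matches (red squares) and NF-Y boxes (blue circles) in the RefSeq promoter windows of 31 mitosis genes, by distance from the annotated start in bases (x axis), 1 row per gene. The CHR matches gather at the start, with the boxes upstream, and the rows of Birc5, Nuf2 and Nusap1 are empty. Over all windows 26 of 35 CHR matches began within 50 bases of the start. Only the first window of Prc1 is drawn.

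All 36 genes were expressed in all 12 libraries. Together they took 7566 ± 8.66 CPM in the libraries labelled DC2.4 Mock (SD, n = 2, as for all group values here), 7093 ± 41.5 in DC2.4 uniSTING, 4610 ± 26.8 in 4T1 Mock, 4859 ± 28.6 in 4T1 uniSTING, 3187 ± 6.58 in EXOmock and 3150 ± 2.53 in EXOuniSTING. The summed level was thus highest where the epithelial markers were high and lowest in the vesicle-treated libraries, and the spread between preparations was small beside the gaps between the 3 experiments. Within an experiment the treated and control sums lay closer together than the sums of different experiments. The median gene stood at 162 CPM in DC2.4 Mock, 103 in 4T1 Mock and 68.1 in EXOmock. The topoisomerase Top2a, which untangles sister chromatids, had the most reads in every group, from 347 CPM in EXOuniSTING to 1211 in DC2.4 Mock, and the entry phosphatase Cdc25c the fewest, from 16.8 to 36.1 CPM.

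Set side by side per kilobase of exonic length, the APC/C activator Cdc20 and Top2a led in DC2.4 Mock with 135 and 134 CPM per kb, followed by Ccnb2 with 104 and Ccna2 with 98.6. This order depends on the length used: per kilobase of the principal mRNA, Top2a (232), Ube2c (225), Birc5 (179) and Anln (159) led that group. Per exonic kilobase the order in 4T1 Mock was Ccnb2 with 75.8, Cdc20 with 62.9 and Top2a with 59.5 CPM per kb, and in EXOmock Cdc20 with 49.0, Ccnb2 with 46.5 and Top2a with 42.1. The lowest places went to Cdc25c and to the long genes Cenpf and Aspm in all 6 groups, at 2.47 to 10.6 CPM per kb. Counting used no strand, so 6 genes that share over 10% of their exonic bases with a gene on the opposite strand are uncertain. These are Kif20a (29.3%), Ube2c (22.8%), Kif4 (15.1%), Cdc25c (12.7%), Ccna2 (12.5%) and Prc1 (11.1%).

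**Figure D2:**
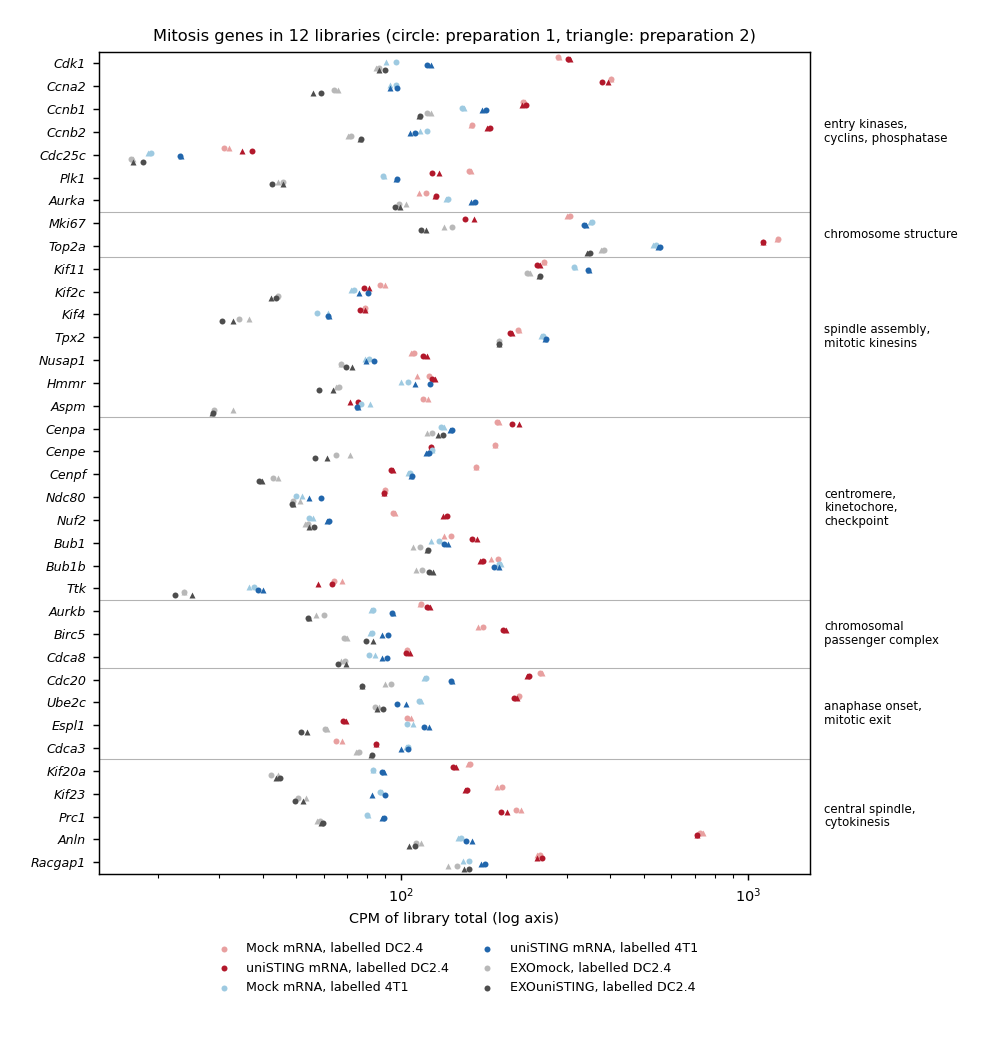
CPM of the 36 mitosis genes (log axis) in each of the 12 libraries, grouped by role. Preparations of a group nearly coincide, the mRNA libraries labelled DC2.4 are highest for most genes, and the vesicle-treated libraries are lowest for most.

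The mock mRNA libraries of the 2 labels were compared first. Of the 36 genes, 29 were higher under the DC2.4 label and 5 under the 4T1 label, where 42.4% and 40.5% of all 14863 genes tested were called in these directions and 83% in either (edgeR quasi-likelihood test, Benjamini-Hochberg adjusted p below 0.05, as for every call below). The median log2 difference was 0.66, against 0.03 over all genes. At least a 2-fold difference was seen for 9 genes, led by the cytokinetic scaffold Anln, with 724 and 741 CPM under the DC2.4 label against 149 and 146 (5.24-fold). Ccna2 was 4.49-fold higher, with 403 and 402.5 against 96.4 and 93.0 CPM, and the central mitotic kinase Cdk1 3.20-fold, with 283 and 285 against 97.0 and 90.5 CPM.

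The other genes followed by rule in this comparison were spread over the same range. Top2a stood at 1215 and 1208 CPM under the DC2.4 label against 542 and 530.3, a log2 difference of 1.25 ± 0.02 (SE). Birc5, the survivin subunit of the chromosomal passenger complex, had 173 and 167 against 82.2 and 81.5 CPM, 1.13 ± 0.03. Plk1, the polo kinase, had 157 and 159 against 88.8 and 89.3 CPM, 0.91 ± 0.03. Those 3 were close to or above a doubling, whereas the next ones were smaller. Cenpe, the kinetochore motor, had 186 and 186 against 123 and 123 CPM, 0.67 ± 0.04. Ccnb1, the main mitotic B-type cyclin, had 224 and 227 against 150.1 and 152 CPM, 0.66 ± 0.03, and Aurkb, the passenger complex kinase, 114 and 113 against 83.2 and 81.9 CPM, 0.54 ± 0.03. Mki67, the Ki-67 antigen that coats mitotic chromosomes, went the other way, with 307 and 300.3 CPM under the DC2.4 label against 355 and 349, a log2 difference of -0.14 ± 0.03. Also lower there were Cdca3, Kif11, Aurka and Tpx2, by at most 0.57 on the log2 scale, while Bub1b and Espl1 did not pass. Adjusted p-values of the 8 followed genes lay between 4.34e-17 and 0.000744.

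The other pair of controls was EXOmock against 4T1 Mock, which both express leukocyte markers but come from different experiments, with vesicles in one and mRNA in the other. Here 0 genes were higher in EXOmock and 33 were lower, against 26.1% and 27.6% of all genes, 53.7% in either direction. The count of higher genes was also 0 at an unadjusted p below 0.05 and by DESeq2. The median log2 difference was -0.47, against 0.00 over all genes. Mki67 had 140.1 and 133 CPM in EXOmock against 355 and 349, a log2 difference of -1.37 ± 0.03. Aspm, a spindle pole protein, had 29.0 and 32.8 against 76.6 and 81.3 (-1.35), and Cenpf, a large kinetochore protein, 42.7 and 44.3 against 106 and 105 (-1.27). These 3 were the only ones past 2-fold and have the 3 longest mRNAs of the list. Of 18 leukocyte markers 4 were higher and 8 lower in EXOmock. Of 18 epithelial markers 1 was higher, but together these had at most 8.25 CPM in EXOmock and 7.05 in 4T1 Mock, so their calls say little. The part of the markers in the differences of mitosis genes was not tested.

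The remaining followed genes were all lower in EXOmock as well. Plk1 had 45.6 and 44.3 CPM there (log2 difference -0.99 ± 0.04), Cenpe 64.9 and 71.5 (-0.84 ± 0.04), Top2a 384 and 376 (-0.50 ± 0.02) and Aurkb 60.0 and 56.9 (-0.50 ± 0.04). Ccnb1 had 119 and 122 CPM (-0.32 ± 0.03), Birc5 68.4 and 70.0 (-0.24 ± 0.04) and Cdk1 86.4 and 84.8 (-0.13 ± 0.04). The difference thus ran from a small one for Cdk1 to more than 2-fold for Mki67, with adjusted p-values from 4.02e-13 to 0.00635. The kinetochore pair Ndc80 and Nuf2 and the phosphatase Cdc25c did not pass, with log2 differences of -0.03, -0.05 and -0.17. Both comparisons of controls use the 4T1 Mock libraries and share controls with the treatments below, so their values are not independent of each other.

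With uniSTING mRNA under the DC2.4 label, the list split. Of the 36 genes 11 rose and 13 fell, against 20.8% and 20.9% of all genes (41.7% in either direction), which left the median at -0.01 on the log2 scale (0.00 over all genes). The falls were the larger changes: Mki67, Cenpf, Aspm, Espl1 and Cenpe each fell by more than 1.5-fold, and 0 genes changed 2-fold. The rises were led by Nuf2 and Cdca3. Each of the 24 called genes moved the same way in both preparations, as did 33 of all 36. The calls were made on these same preparations, so this agreement adds no separate support. The epithelial markers of these libraries also moved, 6 of 18 rising and 1 falling. Of 18 leukocyte markers 1 rose and 1 fell, but together these had only 33.7 to 54.1 CPM here, so their calls say little. The part of the markers in the changes of mitosis genes was not tested.

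Genes of chromosome structure and the proliferation antigen both fell. Mki67 (ENSMUSG00000031004, chr7:135291513-135318090 on the minus strand in GRCm39) went from 307 and 300.3 CPM in the mock libraries to 152 and 162, a log2 change of -0.93 ± 0.03 (adjusted p = 4.96e-11). Top2a (ENSMUSG00000020914, chr11:98883769-98915015, minus strand) went from 1215 and 1208 to 1098 and 1101 CPM, a small change of -0.12 ± 0.02 (adjusted p = 5.07e-05). The treated libraries lay below both mock libraries for each gene. This does not set them apart, as 32 of the 36 genes had groups without overlap in this comparison. Mki67 fell by 47.4% where Top2a fell by 7.99%.

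Of the 7 entry kinases, cyclins and phosphatase, 4 rose and 1 fell. Cdk1 (ENSMUSG00000019942, chr10:69170976-69188768, minus strand) rose from 283 and 285 to 303 and 307 CPM, 0.12 ± 0.03 (adjusted p = 0.00161). Plk1 (ENSMUSG00000030867, chr7:121758662-121769096, plus strand) was the one to fall, from 157 and 159 to 123 and 128 CPM, -0.31 ± 0.03 (adjusted p = 2.74e-06). Ccnb1 (ENSMUSG00000041431, chr13:100915158-100923078, minus strand) had 224 and 227 CPM in the controls and 229 and 223 when treated, which overlap (0.02 ± 0.02, adjusted p = 0.586). The other rises were Ccnb2 by 0.18, Aurka, the spindle pole kinase, by 0.14 and Cdc25c by 0.22. The Ccnb2 and Aurka calls were lost with the trend over exonic length removed (0.005, adjusted p = 0.948, and 0.04, adjusted p = 0.314). Ccnb1, Ccnb2 and Kif4 have named pseudogenes, so their counts are uncertain.

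At the kinetochore and its checkpoint 3 of 8 genes rose and 3 fell, with the extremes of the list on both sides. Nuf2 (ENSMUSG00000026683, chr1:169325503-169359033, minus strand), a subunit of the NDC80 complex that holds microtubules, rose from 94.6 and 96.3 to 136 and 132 CPM, 0.51 ± 0.03 (adjusted p = 2.66e-08). Its partner Ndc80 had 89.4 to 89.9 CPM in all 4 libraries (0.01 ± 0.04). The long coiled-coil proteins went down. Cenpf (ENSMUSG00000026605, chr1:189372803-189420283, minus strand) fell from 164 and 164 to 93.3 and 94.8 CPM, -0.78 ± 0.03 (adjusted p = 7.33e-11). Cenpe (ENSMUSG00000045328, chr3:134918298-134979372, plus strand) fell from 186 and 186 to 122 and 122 CPM, -0.59 ± 0.04 (adjusted p = 1.26e-08). The checkpoint kinase Bub1 rose by 0.28 and the centromeric histone Cenpa by 0.19, while the checkpoint protein Bub1b fell by 0.10 and the checkpoint kinase Ttk did not pass.

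In the chromosomal passenger complex 2 of 3 genes rose. Birc5 (ENSMUSG00000017716, chr11:117740077-117746569, plus strand) rose from 173 and 167 to 196 and 200.3 CPM, 0.24 ± 0.03 (adjusted p = 7.77e-06). Aurkb (ENSMUSG00000020897, chr11:68936473-68942490, plus strand) went from 114 and 113 to 119 and 121 CPM, 0.09 ± 0.03 (adjusted p = 0.0242). The third subunit, borealin (Cdca8), had 103 to 106 CPM in all 4 libraries and did not pass. The Aurkb call was lost without any 1 of the 4 libraries (adjusted p = 0.0609 to 0.155) and with DESeq2 (adjusted p = 0.227), and that of Aurka without DC2.4 Mock preparation 2 (adjusted p = 0.0503).

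Among the 4 genes of anaphase onset and mitotic exit 1 rose and 2 fell. Cdca3 (ENSMUSG00000023505, chr6:124806510-124810664, plus strand), which helps to degrade the entry inhibitor Wee1, rose from 65.1 and 67.7 to 84.8 and 84.8 CPM, 0.37 ± 0.03 (adjusted p = 1.06e-06). Separase (Espl1), which cuts cohesin, fell by 0.60, from 104 and 107 to 67.9 and 69.6 CPM. Cdc20 fell by 0.10, from 251 and 254 to 233 and 231 CPM, and the ubiquitin-conjugating enzyme Ube2c had 212 to 219 CPM. Of 7 spindle genes Nusap1 rose by 0.15, and Aspm, from 115 and 119 to 75.3 and 71.3 CPM, and the depolymerizing kinesin Kif2c fell by 0.66 and 0.13. Of 5 cytokinesis genes 0 rose and 3 fell, the central spindle motors Kif23 and Kif20a by 0.30 and 0.12 and the bundling protein Prc1 by 0.12. The Prc1 call was lost with the trend over exonic length removed (adjusted p = 1.0) and that of Kif20a with the trend over mRNA length removed (adjusted p = 0.0833). Calls of Cdc25c, Bub1b and Kif2c were lost without 1 or another of the 4 libraries.

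**Figure D3:**
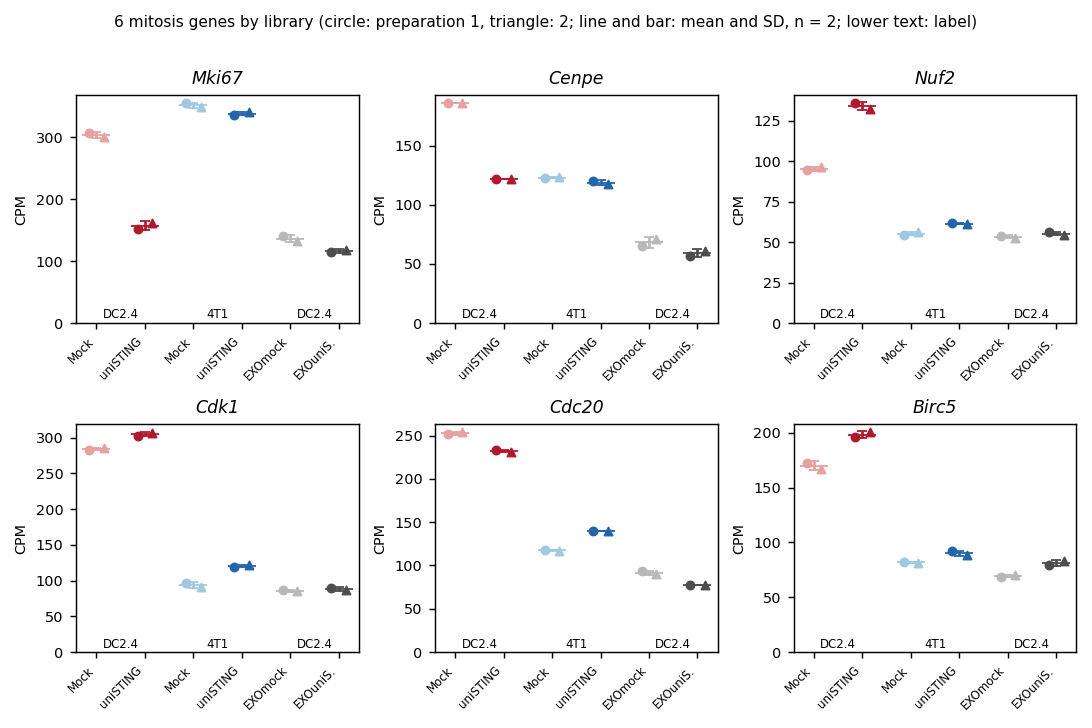
CPM of Mki67, Cenpe, Nuf2, Cdk1, Cdc20 and Birc5 in each of the 12 libraries (points), with the mean and SD of each group (bar and error bar, n = 2). Under the DC2.4 label with mRNA, Mki67 and Cenpe drop and Nuf2 rises, while under the 4T1 label the visible rises are those of Cdk1 and Cdc20.

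With uniSTING mRNA under the 4T1 label, most called genes rose. Of the 36 genes 13 rose and 2 fell, against 12.6% and 15.7% of all genes (28.3% in either direction), and the median change was 0.07 on the log2 scale, against -0.01 over all genes. All changes were small, and 0 genes reached 1.5-fold. The largest rise was that of Cdk1, and the falls were those of Ube2c and Ccnb2. In the same libraries 9 of 18 leukocyte markers fell and 2 rose. Of 18 epithelial markers 1 rose, but together these had at most 7.05 CPM in 4T1 Mock and 8.30 in 4T1 uniSTING. With so few counts their calls say little. The part of the markers in these changes was not tested.

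Of the 7 entry genes 4 were higher and 1 was lower. Cdk1 rose from 97.0 and 90.5 to 119 and 122 CPM, 0.34 ± 0.03 (adjusted p = 3.42e-06). Aurka (ENSMUSG00000027496, chr2:172198110-172212455, minus strand) rose from 136 and 135 to 163 and 159 CPM, 0.22 ± 0.03 (adjusted p = 8.83e-05). Ccnb1 rose from 150.1 and 152 to 176 and 171 CPM, 0.17 ± 0.03 (adjusted p = 0.000259). For all 3 both treated libraries stood above both mock libraries. This does not set them apart, as 32 of the 36 genes had groups without overlap here and only 15 were called. The share over all genes was not computed. Ccnb2 (ENSMUSG00000032218, chr9:70314974-70328829, minus strand) fell from 119 and 113 to 110.0 and 106 CPM, -0.13 ± 0.03 (adjusted p = 0.00384), so the B-type cyclins were called in opposite directions. Cdc25c rose by 0.27, and Plk1, with 88.8 and 89.3 CPM in the controls and 97.6 and 96.5 when treated, missed the threshold (0.10 ± 0.04, adjusted p = 0.0577; 0.0395 with the preparation as a block).

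At anaphase onset 2 of 4 genes rose and 1 fell. Cdc20 (ENSMUSG00000006398, chr4:118290098-118294549, minus strand) rose from 118 and 117 to 139 and 140 CPM, 0.22 ± 0.03 (adjusted p = 2.6e-05). Ube2c (ENSMUSG00000001403, chr2:164611818-164620742, plus strand), which works with the same ligase, fell from 113 and 114 to 97.3 and 103 CPM, -0.21 ± 0.03 (adjusted p = 0.000392). Ube2c shares 22.8% of its exonic bases with Tnnc2 on the opposite strand, as given above. Espl1 rose by 0.13, where under the DC2.4 label it had fallen.

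The passenger complex again had 2 of 3 genes higher. Aurkb rose from 83.2 and 81.9 to 93.9 and 94.9 CPM, 0.17 ± 0.03 (adjusted p = 0.00151), and Birc5 from 82.2 and 81.5 to 91.8 and 88.3 CPM, 0.11 ± 0.03 (adjusted p = 0.0285). The Birc5 call was lost with DESeq2 (adjusted p = 0.149) and without 4T1 Mock preparation 1, Mock preparation 2 or uniSTING preparation 1 (adjusted p = 0.0812, 0.0964 and 0.123). Of the followed genes that had fallen under the DC2.4 label, Mki67, Cenpe and Top2a did not pass here. Mki67 had 355 and 349 CPM in the controls and 336 and 341 when treated (-0.08 ± 0.03, adjusted p = 0.0523; 0.0492 with the preparation as a block). Cenpe had 123 and 123 in the controls and 120.1 and 118 when treated (-0.08 ± 0.04, adjusted p = 0.136), and Top2a 542 and 530.3 in the controls and 555 and 549 when treated (0.01 ± 0.02, adjusted p = 0.622). Of the remaining rises, Nuf2 had 0.12, the spindle genes Hmmr and Kif11 0.14 and 0.11, and the central spindle genes Racgap1 and Prc1 0.14 and 0.12.

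The count of rises under the 4T1 label depended on the tool and on single libraries. It was 7 with DESeq2, 19 with upper-quartile scaling and 8 without 4T1 Mock preparation 1, while the count of falls was 1 without 4T1 uniSTING preparation 2, where the Ccnb2 call was lost (adjusted p = 0.0597). Across every setting run 7 of the 15 calls held, those of Cdk1, Ccnb1, Aurka, Aurkb, Cdc20, Ube2c and Kif11; the same count under the DC2.4 label was 13 of 24, among them Mki67, Cenpf, Cenpe, Aspm, Espl1, Plk1, Nuf2, Cdca3 and Cdk1.

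With vesicles from uniSTING-treated cells, 5 of the 36 genes rose and 7 fell, against 7.96% and 8.14% of all genes, 16.1% in either direction. The median change was -0.01 on the log2 scale (0.00 over all genes), and 0 genes reached 1.5-fold. The largest changes were a fall of Cdc20 and a rise of Birc5. Of 18 leukocyte markers 3 rose and 2 fell. Their summed level went from 14028 to 14134 CPM in EXOmock to 11272 to 12044 in EXOuniSTING. The 18 epithelial markers together had at most 8.25 CPM in EXOmock and 7.97 in EXOuniSTING. With so few counts a change could hardly be called, and 0 were. The part of the markers in the changes of mitosis genes was not tested. With DESeq2 size factors or upper-quartile factors in place of the TMM factors, 7 genes rose and 6 fell, so the balance of rises and falls depended on the scaling.

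The falls with vesicles were led by Cdc20, from 93.4 and 89.6 to 77.4 and 77.2 CPM, -0.24 ± 0.03 (adjusted p = 0.00018). Top2a fell from 384 and 376 to 350.2 and 344 CPM, -0.13 ± 0.02 (adjusted p = 0.000398), and Mki67 from 140.1 and 133 to 114 and 118 CPM, -0.22 ± 0.04 (adjusted p = 0.00126). In each of the 3 both treated libraries lay below both controls. That does not set them apart, as 26 of the 36 genes had groups without overlap with vesicles and only 12 were called. Cenpe went from 64.9 and 71.5 to 56.5 and 61.2 CPM, -0.21 ± 0.05 (adjusted p = 0.00965), and Espl1, Ccna2 and Cenpf fell by 0.21, 0.19 and 0.14. The Cenpe call was lost without EXOmock preparation 2 (-0.13, adjusted p = 0.157) or EXOuniSTING preparation 1 (adjusted p = 0.0733).

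The rises were led by Birc5, from 68.4 and 70.0 to 79.5 and 83.1 CPM, 0.23 ± 0.04 (adjusted p = 0.00104). Kif11 (ENSMUSG00000012443, chr19:37364851-37410307, plus strand), the kinesin that pushes spindle poles apart, rose from 230.1 and 236 to 251 and 249 CPM, 0.10 ± 0.02 (adjusted p = 0.0123). Racgap1 (ENSMUSG00000023015, chr15:99518377-99549537, minus strand), which with Kif23 forms the centralspindlin complex, rose from 144 and 136 to 157 and 151 CPM, 0.13 ± 0.03 (adjusted p = 0.0166). Cdca3 and Bub1b rose by 0.14 and 0.12. These last calls were fragile. Kif11 was lost without EXOmock preparation 1 (adjusted p = 0.114) or EXOuniSTING preparation 1 (adjusted p = 0.0545), Racgap1 without EXOmock preparation 2 (adjusted p = 0.182) or EXOuniSTING preparation 1 (adjusted p = 0.0958), and Cdca3, Bub1b and Cenpf without any 1 of the 4 libraries.

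The other entry and passenger genes were not called with vesicles. Cdk1 had 86.4 and 84.8 CPM in the controls and 89.9 and 86.4 when treated (0.04 ± 0.04, adjusted p = 0.516), and Plk1 45.6 and 44.3 in the controls and 42.4 and 45.9 when treated (-0.02 ± 0.05, adjusted p = 0.917), with overlap in both. Ccnb1 had 119 and 122 in the controls and 114 and 113 when treated (-0.09 ± 0.03, adjusted p = 0.052), and Aurkb 60.0 and 56.9 in the controls and 54.0 and 54.2 when treated (-0.11 ± 0.04, adjusted p = 0.102). Leaving out EXOmock preparation 1, EXOmock preparation 2, EXOuniSTING preparation 1 or EXOuniSTING preparation 2 left 2, 2, 1 or 3 rises, and 3 falls without EXOmock preparation 2. Across every setting run 3 of the 12 calls held, those of Cdc20, Top2a and Birc5. Fitted on the 4 vesicle libraries alone, without the libraries whose markers go against their labels, 5 genes rose and 6 fell.

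**Figure D4:**
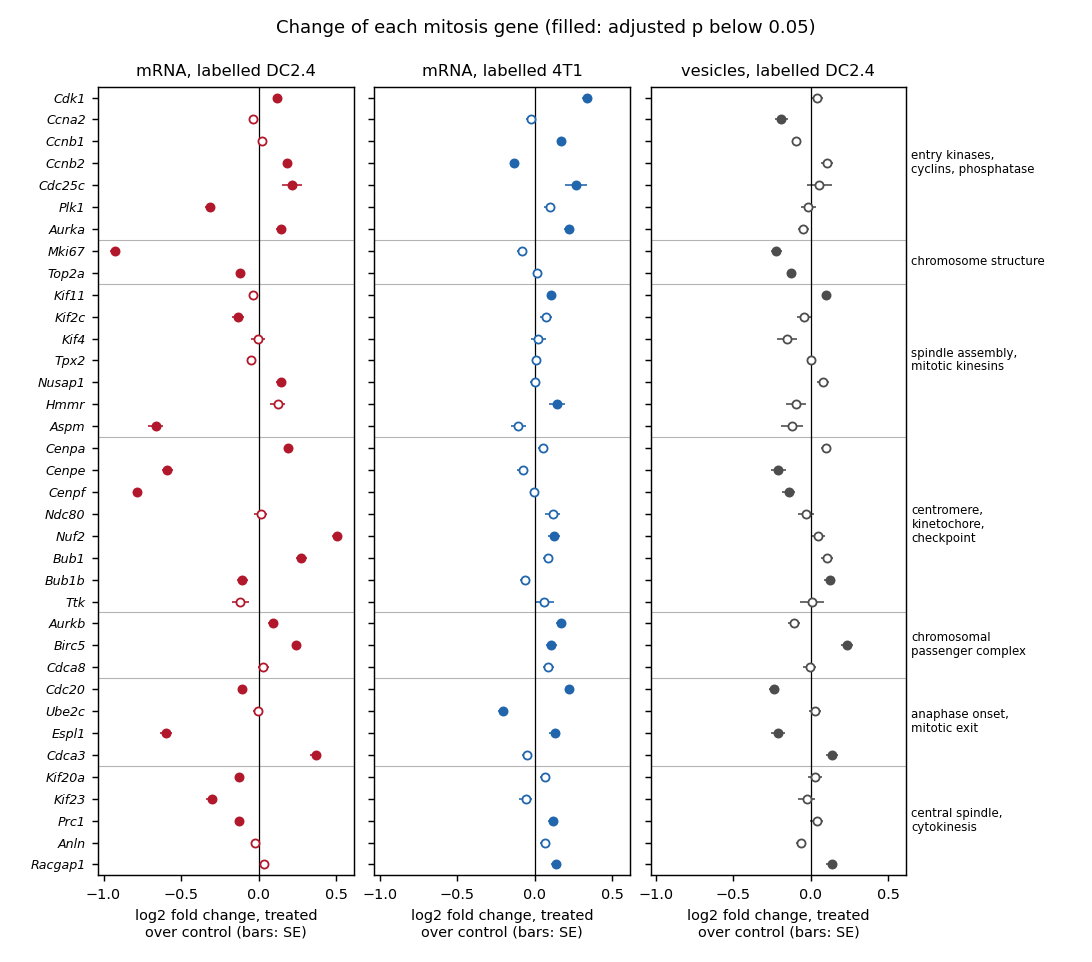
Log2 change with its SE of each of the 36 mitosis genes in the 3 treatment comparisons, by role, filled where the adjusted p was below 0.05. Changes under the DC2.4 label with mRNA run from -0.93 (Mki67) to 0.51 (Nuf2), while those of the other 2 comparisons stay between -0.24 and 0.34.

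The differences between responses were tested directly. Between the labels given mRNA, 8 genes responded higher under DC2.4 and 15 lower, against 16% and 15.1% of all genes (31.1% in either direction), and the median difference was -0.10 on the log2 scale. The largest gaps were those of Mki67 (-0.84), Cenpf (-0.78), Espl1 (-0.72), Aspm (-0.56) and Cenpe (-0.51) on the lower side and of Cdca3 (0.42), Nuf2 (0.38) and Ccnb2 (0.32) on the higher side. Cdc20 (-0.33), Espl1, Prc1 (-0.24) and Ccnb2 were called in opposite directions under the 2 labels. Of these 8 single calls, those of Cdc20 under both labels and of Espl1 under the DC2.4 label held in every setting run. The higher count was 5 without DC2.4 uniSTING preparation 2. Between mRNA under the 4T1 label and vesicles, which both concern libraries rich in leukocyte markers, 11 genes responded higher to mRNA and 4 lower, against 13% and 15% of all genes, 28% in either direction. Cdc20 had the largest gap (0.46), followed by Espl1 (0.34) and Cdk1 (0.30), while Ccnb2 (-0.24) and Ube2c (-0.23) were lower. The higher count was 7 with DESeq2 or with its size factors.

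By promoter class, of 23 genes with both motifs 6 rose and 10 fell with mRNA under the DC2.4 label (20.8% and 20.9% of all genes), 8 rose and 2 fell under the 4T1 label (12.6% and 15.7%), and 4 rose and 5 fell with vesicles (7.96% and 8.14%). Of the 3 genes without either motif, 3, 2 and 1 rose and 0 fell in the same comparisons. The rises of Nuf2 and Nusap1 under the DC2.4 label and of Birc5 with vesicles held in every setting run. Those of Nuf2 and Birc5 under the 4T1 label were lost with DESeq2 (adjusted p = 0.146 and 0.149). That of Birc5 under the DC2.4 label was lost with the trend over mRNA length removed (adjusted p = 0.843). The difference between these classes was not tested.

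The largest falls with mRNA under the DC2.4 label belonged to the longest mRNAs. Principal transcripts were taken from an earlier annotation (GENCODE M21) for their lengths alone. The 5 longest mRNAs of the list, of Espl1 (6.66 kb), Cenpe (7.91 kb), Aspm (9.87 kb), Mki67 (10.1 kb) and Cenpf (11.1 kb), were the 5 largest falls with uniSTING mRNA under the DC2.4 label, with a median of -0.66. Of all 1116 genes tested with mRNAs as long as that of Espl1 or longer, 692 (62.0%) fell and 44 rose, with a median of -0.34. Of the 31 shorter mitosis genes 11 rose and 8 (25.8%) fell there, with a median of 0.01. Of all 11414 shorter genes tested 2711 rose and 2256 (19.8%) fell, with a median of 0.02. Spearman's rho between change and mRNA length was -0.60 over the 36 genes and -0.40 over 12530 genes under the DC2.4 label, -0.24 and -0.11 under the 4T1 label, and -0.43 and -0.11 with vesicles. Between the controls EXOmock and 4T1 Mock it was -0.51 and -0.27. There the 5 longest were all lower, with a median of -1.27, as were 53.8% of all genes of that length, with a median of -0.27. Of the 31 shorter mitosis genes 28 (90.3%) were lower there too, with a median of -0.42. Among all shorter genes 29.2% were lower, with a median of 0.002. These are descriptions across genes, which share libraries and are not independent replicates.

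With the trend over mRNA length taken out across all genes, the falls of the 5 longest under the DC2.4 label shrank but kept their calls. Mki67 stood at -0.53, Cenpf and Espl1 at -0.35, Cenpe at -0.28 and Aspm at -0.27 on the log2 scale. Nuf2 stood at 0.47 and Cdk1 at 0.21, and both kept their calls as well. Calls were lost for 9 other genes of the DC2.4 comparison: the falls of Top2a (0.02), Bub1b (-0.05) and Kif20a (-0.07) and the rises of Birc5 (-0.01), Ccnb2 (0.04), Aurka (0.05), Aurkb (0.01), Cenpa (0.04) and Cdc25c (0.13). Their adjusted p-values then lay between 0.0833 and 0.904. Ube2c was called lower instead (-0.26, adjusted p = 5.53e-06), and Kif11, Kif4, Anln and Hmmr higher (0.08, 0.12, 0.08 and 0.19). With vesicles the falls of Mki67 (-0.12, adjusted p = 0.0604) and Cenpf (-0.03, adjusted p = 0.799) and the rises of Cdca3 (adjusted p = 0.0824) and Racgap1 (adjusted p = 0.0526) were lost, and Ccnb1 was called lower (-0.11, adjusted p = 0.0423). What underlies the trend was not tested.

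**Figure D5:**
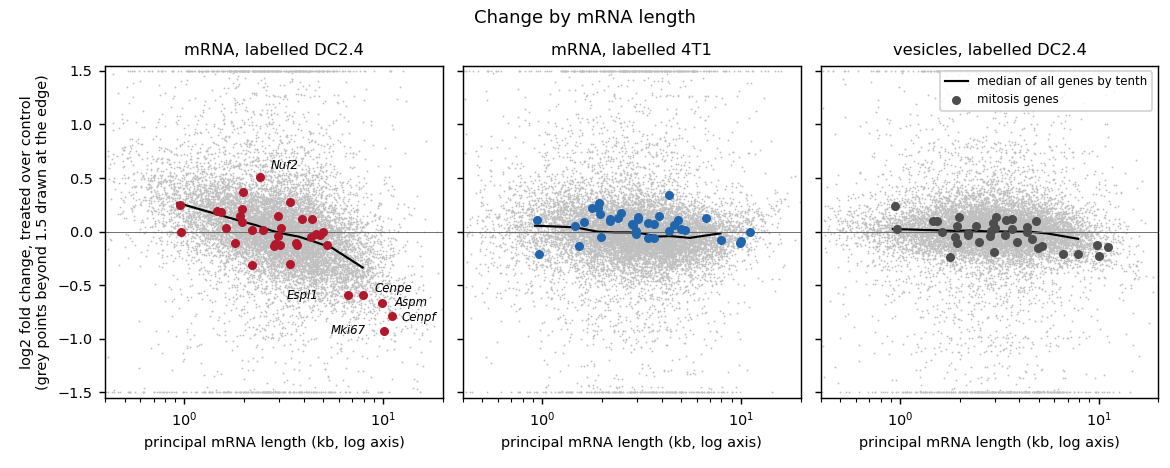
Log2 change (y axis; grey points beyond 1.5 are drawn at the edge) against principal mRNA length in kb (log axis) for the 36 mitosis genes (coloured) and all genes (grey), with the median of all genes in equal-sized bins of length (line), in the 3 treatment comparisons. In the left panel the 5 longest mitosis genes lie at the lower right, below the falling line, and Nuf2 lies highest; the lines of the other panels are nearly flat.

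Regulators and partners of the list were read from further lists, whose genes are given by smallest adjusted p. Beside the counts below, the shares of all genes that rose and fell were 20.8% and 20.9% with mRNA under the DC2.4 label, 12.6% and 15.7% under the 4T1 label and 7.96% and 8.14% with vesicles, and a list whose shares lie near these shows nothing of its own. Foxm1, the transcription factor that drives G2 and M genes, fell from 186 ± 0.692 to 146 ± 3.98 CPM under the DC2.4 label with mRNA (log2 change -0.33), had 109 ± 0.429 and 109.9 ± 2.57 under the 4T1 label (-0.02, adjusted p = 0.738) and rose from 65.3 ± 0.688 to 76.0 ± 3.70 with vesicles (0.21, adjusted p = 0.00338). Mybl2, its partner at the CHR, fell by 0.19 under the DC2.4 label, rose by 0.27 under the 4T1 label, from 163 to 200.2 CPM, and did not pass with vesicles (-0.03, adjusted p = 0.599). Of 22 regulators tested, 3 rose and 9 fell, 5 rose and 5 fell, and 2 rose and 3 fell in the 3 comparisons in that order. Lin37, a MuvB subunit, rose by 0.72 and E2f3 fell by 0.45 under the DC2.4 label. Rb1, the retinoblastoma repressor, fell by 0.22 under the 4T1 label and rose by 0.26 with vesicles.

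Subunits and partners of the APC/C moved in both directions. Of 17 genes 9 rose and 4 fell under the DC2.4 label, where the small subunit Anapc13 rose by 0.68 and the largest, Anapc1, fell by 0.41. Under the 4T1 label 6 rose and 2 fell, with Cdc26 up by 0.38 and Anapc13 down by 0.39, and with vesicles 3 rose and 1 fell, the activator Fzr1 by 0.18 upward and Ube2s by 0.16 downward. Of 10 further spindle checkpoint genes, 2, 4 and 1 rose and 3, 1 and 2 fell. Mad2l1, the effector that inhibits Cdc20, rose by 0.40 and 0.39 with mRNA under the 2 labels, and Kntc1, of the complex that brings it to kinetochores, fell by 0.51 under the DC2.4 label and 0.25 with vesicles.

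Entry kinases and cofactors outside the 36 were mixed, with 7, 6 and 1 of 17 genes higher and 6, 4 and 1 lower. The Cdk subunit Cks2 rose by 0.34 and the inhibitory kinase Wee1 fell by 0.28 under the DC2.4 label, and the phosphatase Cdc25b rose by 0.29 with vesicles. Of 27 centromere and kinetochore genes 8, 7 and 3 rose and 2, 1 and 1 fell; Cenpi rose by 0.50 and 0.30 with mRNA under the 2 labels, and Hjurp, the chaperone of Cenpa, fell by 0.12 and 0.14. Condensin and cohesin had 4, 4 and 1 of 20 genes higher and 7, 2 and 5 lower, with the cohesin subunit Smc1a down by 0.51 and 0.30 with mRNA. Of 28 other spindle and cytokinesis genes 8, 5 and 1 rose and 10, 5 and 4 fell, among them Cep55, which rose by 0.30 and 0.21 with mRNA, and Numa1, a long spindle pole protein, which fell by 0.65 under the DC2.4 label.

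The DNA replication genes, which act in S phase, moved mostly one way under 1 of the labels. With uniSTING mRNA under the 4T1 label 24 of 28 replication genes rose and 0 fell, with a median of 0.19 on the log2 scale. The sliding clamp Pcna went from 309.9 to 389.5 CPM (0.30, adjusted p = 2.18e-07) and the helicase subunit Mcm5 rose by 0.30. Under the DC2.4 label 11 rose and 11 fell, with Tyms up by 0.33 and Pole down by 0.59, and with vesicles 2 rose and 4 fell. Tested directly, 18 of the 28 genes responded higher to mRNA under the 4T1 label than to vesicles and 0 lower, and 15 responded lower under the DC2.4 than under the 4T1 label and 0 higher. Cdkn1a, the p53 target p21, stood at 11.8 and 12.2 CPM in the mock and uniSTING libraries labelled DC2.4, at 299.7 and 292 in those labelled 4T1 and at 323 and 306 with vesicles, and was called in 0 of these comparisons (adjusted p = 0.524, 0.0791 and 0.0532). Of 9 Cdk inhibitors and p53 genes tested, 5, 3 and 1 rose and 1, 2 and 2 fell, with the p53 antagonist Mdm2 up by 0.49 under the DC2.4 label.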

How the data were processed

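RNA was extracted with the RNeasy Plus kit, and libraries were made from 1.0 µg of it with a NEBNext Ultra kit, per the labels' protocols. Every value starts from the gene counts that the authors deposited. Reads were aligned with HISAT2 to GRCm39, per the submitters' processing notes, and uniquely mapped read pairs were counted with featureCounts 2.0.1 over exons by gene on Ensembl 103 without a strand option, per the file headers, which agreed over all 12 files. Trimming, the HISAT2 version and the strandedness of the kit are not given in the sources used here. Counting unique reads lowers genes with close copies. Symbols matched 52093 of 53647 identifiers.

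Differences were tested with edgeR 4.0.16 (R 4.3.3) on the 12 libraries together. Each group had its own mean, scaling used TMM factors, filterByExpr by group left 14863 genes, and calls were made with the quasi-likelihood F test and Benjamini-Hochberg adjustment over all genes tested, at 0.05. The SE of a log2 change is its size over the root of F, and CPM use deposited totals. The common coefficient of variation was 3.05% with 6 residual degrees of freedom, and preparations of a group gave a chi-square of 2.17 to 2.79 per gene, so no pair of libraries agreed within counting noise. Deviations of same-numbered preparations correlated at 0.207 to 0.725 (median 0.283) over 15 pairs of groups and 10547 genes. The numbers, which come from the labels, were therefore taken as pairing the samples in an alternative fit with the preparation as a block. The main fit, which gave the calls, left this pairing out. Other alternatives were DESeq2 1.42.0, its size factors or upper-quartile factors in edgeR, 2 other filters on low counts, limma-voom (limma 3.58.1), fits on the compared libraries alone, removal of the trend with length (loess, span 0.5) and leaving out each library. The procedure was tested on simulated counts with planted changes of 1.5-fold or more and with libraries drawn independently. Smaller changes, as most treatment changes here are, and the correlation of preparations were therefore not covered.

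Members and lists were chosen with earlier results of these data known. Full values were given for Mki67, Top2a, Cdk1, Ccnb1, Plk1, Aurkb, Birc5 and Cenpe in every comparison and, in each treatment comparison, for the leading 3 called members each way by adjusted p; from other lists the leading 2 called genes each way by adjusted p, plus Foxm1, Mybl2, Pcna and Cdkn1a, could be named. Promoter windows came from RefSeq (GRCm38.p6), and no coordinates were converted between builds.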

Additional observations from a re-analysis of the deposited data

Results flagged for a closer look

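The response to uniSTING mRNA differed between the libraries labelled DC2.4 and those labelled 4T1 for 23 of the 36 mitosis genes (63.9%). Of all 14863 genes tested 31.1% differed. Calls used the edgeR quasi-likelihood test of the difference of the log2 changes (DC2.4 label minus 4T1 label, adjusted p below 0.05 in each case). Among chromosome and entry genes the difference was -0.84 for Mki67, -0.13 for Top2a, -0.15 for Ccnb1, 0.32 for Ccnb2, -0.22 for Cdk1 and -0.41 for Plk1. At the kinetochore it was 0.19 for Bub1, 0.14 for Cenpa, -0.51 for Cenpe, -0.78 for Cenpf and 0.38 for Nuf2, and in the passenger complex 0.14 for Birc5. Spindle genes gave -0.14 for Kif11, -0.20 for Kif2c, 0.14 for Nusap1 and -0.56 for Aspm, and cytokinesis genes -0.19 for Kif20a, -0.24 for Kif23 and -0.24 for Prc1. At anaphase onset it was -0.33 for Cdc20, 0.20 for Ube2c, 0.42 for Cdca3 and -0.72 for Espl1. Of these 23 calls, 16 held in every setting run.

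The response to mRNA under the 4T1 label differed from that to vesicles for 15 of the 36 genes (41.7%), by the same test (mRNA minus vesicles). Of all genes tested 28% differed. Among entry genes the difference was 0.26 for Ccnb1, -0.24 for Ccnb2, 0.17 for Ccna2, 0.30 for Cdk1 and 0.27 for Aurka. It was 0.14 for Mki67 and 0.14 for Top2a, 0.27 for Aurkb and -0.18 for Bub1b. It was 0.46 for Cdc20, -0.23 for Ube2c, -0.18 for Cdca3 and 0.34 for Espl1, and 0.13 for Anln and 0.24 for Hmmr. Of these 15 calls, 10 held in every setting run; those of Mki67, Ccna2, Anln, Hmmr and Bub1b did not.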

How the results depend on the processing

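With the preparation as a block, 12 genes rose and 13 fell under the DC2.4 label with mRNA, 14 and 3 under the 4T1 label and 5 and 7 with vesicles. The block changed the calls of Hmmr (0.12 under the DC2.4 label, adjusted p 0.0631 without and 0.0327 with the block), Mki67 (-0.08 under the 4T1 label, 0.0523 and 0.0492), Plk1 (0.10 under the 4T1 label, 0.0577 and 0.0395) and Racgap1 in the difference between labels (-0.10, 0.083 and 0.034), and of no other mitosis gene. Removing the trend with exonic length turned Anln (0.12), Top2a (0.026) and Kif11 (0.070) upward under the DC2.4 label. With mRNA length, added after seeing the data, Anln was 0.080, Top2a 0.025, Kif11 0.083, Kif4 0.12 and Birc5 -0.011 there, and the difference between labels was -0.057 for Birc5. DESeq2 gave 7 rises under the 4T1 label, 3 with vesicles, 5 higher genes in the difference between labels and 7 in that between mRNA and vesicles, and over all genes 743 falls with vesicles and 1267 higher in the last difference. DESeq2 size factors in edgeR also gave 7 in the last difference. With the length trend removed 5 genes were higher in the difference between labels, and with the mRNA length trend 4 there and 3 rises with vesicles. Leaving out 1 library gave 1 to 3 rises and 3 to 6 falls with vesicles, with 603 to 769 rises and 691 to 763 falls over all genes. Under the 4T1 label it gave 8 to 11 rises and 1 to 2 falls, with 1480 to 1808 falls over all genes, and in the difference between labels 5 to 8 higher genes. Scaling moved the median of all genes by at most 0.073 on the log2 scale. The causes of these shifts were not tested, beyond the fewer samples of the left-out fits. At 14.1 to 26.0 M counts per library none of the 36 genes came near a count of 0, the lowest being 235 for Cdc25c. The 2 preparations per group limit the small changes most, and those of the genes with the fewest counts are limited by depth as well.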
